A study of Mus musculus with 19 samples.

Results

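The fibrillar collagen genes described here are the 6 that encode the chains of collagen types I, III and V, namely *Col1a1*, *Col1a2*, *Col3a1*, *Col5a1*, *Col5a2* and *Col5a3*. They were chosen by name, with earlier results of these libraries known, and are 6 of the 24552 genes in each table. The study had already pointed to collagen genes in the conjunctiva of these libraries, so the diet changes below are no independent evidence of that direction. Bulk RNA sequencing was performed on cornea (the corneal epithelium, scraped off, by the study's methods) and excised conjunctiva of female C57BL/6J mice. Ad libitum (AL) mice ate freely. Calorie restriction (CR) mice received 40% less food for 4 months from an age of 6 to 7 months. The study's methods have CR mice fed daily just before the dark phase, in their passage on a single feeding cohort. Every library title carries 6M and 50W, read here as 6 months and 50 weeks. The labels put 4 AL and 5 CR libraries in the conjunctiva and 5 AL and 5 CR libraries in the cornea. The study used more than one feeding cohort, in one of which the chow of CR mice was enriched in vitamins and micronutrients, and which cohort gave these libraries is not given in the sources used here. Amount of food, feeding time and any difference in chow therefore cannot be told apart. The libraries of a group are separate samples by their titles, and p-values measure the spread between them.

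Fibrillar collagens are secreted as procollagens made of 3 chains wound around each other, trimmed outside the cell, and packed side by side into the fibrils that give connective tissue its tensile strength. Type I collagen is built from the products of *Col1a1* and *Col1a2* and is the bulk of most fibrils. Type III collagen, from *Col3a1*, is mixed into the fibrils of soft, extensible tissue, and type V collagen, from *Col5a1*, *Col5a2* and in some tissues *Col5a3*, sits inside the fibril, where it starts fibril assembly and limits fibril width. In the ocular surface, fibroblasts of the conjunctival stroma and keratocytes of the corneal stroma are the main source of these chains, while the epithelium lying on top is known for basement membrane collagens instead.

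The depth was 10726717 to 14433441 counted reads in the conjunctiva libraries and 10354125 to 14681223 in those of the cornea. The ribosomal precursor *Rn45s* took 5.60% to 13.1% and 8.98% to 15.1% of them, so shares, marker levels and levels set across tissues are given per 1000000 reads without it (CPM). The values of a gene within a tissue are normalized counts, which are reads divided by the authors' size factor of the library. The corneal epithelial keratin *Krt12* reached 17687 to 32652 CPM in the cornea and 38.9 to 481 CPM in the conjunctiva, and the goblet cell mucin *Muc5ac* 201 to 543 CPM in the conjunctiva and no more than 4.18 CPM in the cornea. The tissue labels go together with *Krt12* and *Muc5ac*. The keratin *Krt4* had medians of 1296 (AL) and 1339 CPM (CR) in the conjunctiva, against 317 and 498 in the cornea. *Krt13*, also set down beforehand as a conjunctiva marker, went the other way. Its medians were 1651 (AL) and 1876 CPM (CR) in the conjunctiva, and 2448 and 2396 in the cornea. In the cornea the keratocyte gene *Kera* stayed at or below 1.29 CPM in every library, and the fibroblast marker *Pdgfra* lay between 2.77 and 8.77 CPM. The keratocyte gene *Angptl7* reached 4.66 CPM under CR. The keratocyte markers summed to 5.75 CPM in cornea CR7 and to no more than 2.80 in the other cornea libraries. CR7 also had the highest sum of fibroblast markers in the cornea, 155 CPM.

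On GRCm38, *Col1a1* lies on chromosome 11 (94936224 to 94953042, plus strand), *Col1a2* on chromosome 6 (4504814 to 4541544, plus strand), *Col5a1* on chromosome 2 (27886425 to 28039514, plus strand) and *Col5a3* on chromosome 9 (20770050 to 20815067, minus strand). *Col3a1* (chromosome 1, 45311538 to 45349706, plus strand) and *Col5a2* (chromosome 1, 45374321 to 45503282, minus strand) are neighbours that end toward each other across 24614 bases. These positions come from the annotation of GRCm38, the build in the study's methods. The submitters' processing notes name GRCm39 instead. The other 4 genes lie on different chromosomes.

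The promoters of *Col3a1*, *Col5a1* and *Col5a3* are shown because the genes are spread over the genome and had log2 changes of the same sign in the conjunctiva. RefSeq promoter sequences were matched for 4 of the 6 genes, *Col1a2*, *Col3a1*, *Col5a1* and *Col5a3*. The stretch upstream of the RefSeq start of *Col1a2* lies within an annotated exon for 125 of its 130 bases and is not printed. The 130 bases before the start of the others are given 5′ to 3′ on the strand of the gene (GRCm38.p6), with matches to CCAAT, to GGGCGG or its reverse complement CCGCCC, and to TATAAA in capitals. They are chr1:45311408-45311537 on the plus strand, chr2:27886295-27886424 on the plus strand and chr9:20815068-20815197 on the minus strand.
Col3a1: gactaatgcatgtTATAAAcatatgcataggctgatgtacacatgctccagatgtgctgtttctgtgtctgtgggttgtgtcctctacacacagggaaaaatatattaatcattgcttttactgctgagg
Col5a1: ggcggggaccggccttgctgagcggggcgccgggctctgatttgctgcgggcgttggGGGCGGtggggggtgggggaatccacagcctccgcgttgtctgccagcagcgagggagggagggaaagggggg
Col5a3: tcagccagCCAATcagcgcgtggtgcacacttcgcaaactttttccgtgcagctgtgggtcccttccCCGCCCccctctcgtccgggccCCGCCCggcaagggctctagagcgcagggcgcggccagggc
That of *Col3a1* held 1 match to TATAAA, 117 bases upstream. Those of *Col5a1* and *Col5a3* were richer in G and C and held GGGCGG, on the plus strand of the gene 73 bases upstream in *Col5a1* and on the other strand 63 and 41 bases upstream in *Col5a3*. CCAAT was found in the *Col5a3* stretch, 122 bases upstream. Over the 250 bases before the start, on both strands, CCAAT occurred in 33.8%, GGGCGG in 32.7% and TATAAA in 12.4% of all 32851 promoters, so each match is of a common kind, and none of them overlap each other here.

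In the conjunctiva, transcripts of type I, III and V collagen were lower under CR, for 4 of the 6 genes. *Col1a1*, *Col3a1*, *Col5a2* and *Col5a3* passed the test, with mean normalized counts under CR between 18.5% (*Col5a3*) and 39.5% (*Col1a1*) of the AL means. *Col1a2* and *Col5a1* had log2 changes below 0 that did not pass. The test was limma over the 13929 genes whose mean reached 10 normalized counts. A call needed a fold over 1.5 and a p, adjusted by Benjamini and Hochberg over all of these genes, under 0.05. With 4 of 6 genes called lower, the background was 0.136% of all tested genes called lower. The CR libraries lay wholly below the AL libraries for 5 of the 6 genes, against 1.95% of all tested genes. All 6 log2 changes were below 0, as were 52.0% of those of all tested genes. All 6 genes passed the filter on low values. In bulk tissue, fewer cells that make collagen and less collagen RNA per cell cannot be told apart.

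**Figure D1:**
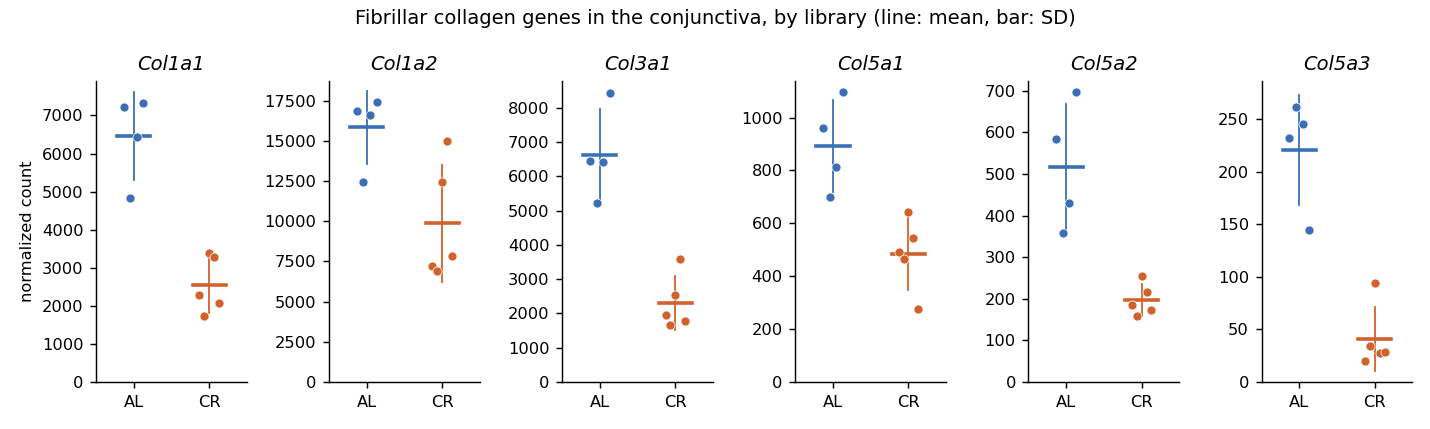
Normalized counts of the 6 fibrillar collagen genes in the conjunctiva, 1 point per library, with 4 AL libraries in blue and 5 CR libraries in orange. Each panel has its own linear axis from 0, the thick line is the group mean and the thin bar the SD. The groups are apart in 5 panels and overlap for Col1a2, where the highest CR library (14996) lies above the lowest AL library (12441).

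Type I collagen took the most reads of the set. *Col1a1* had 7235, 4833, 6444 and 7320 normalized counts in conjunctiva libraries AL1, AL3, AL4 and AL5, and 2279, 1729, 3383, 3285 and 2069 in CR1 to CR5. The lowest AL library stood above the highest CR library, and the means were 6458 ± 1153 (SD, n = 4) under AL and 2549 ± 744 (SD, n = 5) under CR. *Col1a1* fell by 1.37 ± 0.20 (SE) on the log2 scale, with a limma adjusted p of 0.0059. Its partner *Col1a2* had 16878, 12441, 16607 and 17403 normalized counts in the AL libraries and 7213, 6871, 12407, 14996 and 7808 in the CR libraries. The groups overlapped, since CR4 lay above AL3, with CR3 just below it, while CR1, CR2 and CR5 stayed well under it. The means were 15832 ± 2285 under AL and 9859 ± 3641 under CR, and the log2 change of −0.75 ± 0.22 (SE; 95% interval −1.23 to −0.26) did not pass (limma adjusted p = 0.243).

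Type III collagen, which is mixed with type I in loose connective tissue, showed the smallest p of the 6 genes. *Col3a1* had 6446, 5224, 6432 and 8437 normalized counts in AL1, AL3, AL4 and AL5, and 1945, 1660, 2528, 3576 and 1782 in CR1 to CR5. No CR library reached the lowest AL library. The means were 6635 ± 1331 and 2298 ± 788, and *Col3a1* fell by 1.57 ± 0.21 (SE) on the log2 scale (limma adjusted p = 0.0034).

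The type V chains were the least abundant. *Col5a1*, the chain that nearly every type V molecule contains, had 961, 700, 814 and 1097 normalized counts in the AL libraries and 491, 466.4, 644, 543 and 276 in the CR libraries. The groups did not overlap, but the gap between AL3 and CR3 was narrow, and the log2 change of −0.92 ± 0.22 (SE; 95% interval −1.38 to −0.46) did not pass (limma adjusted p = 0.0953). When 1 library was left out, *Col5a1* passed in 1 of 9 fits. That was the fit without CR3 (−1.03, limma adjusted p = 0.027), which makes 5 of 6 genes called. Over the 9 fits its limma adjusted p ran up to 0.281. *Col5a2*, the usual partner chain, had 584, 359, 431 and 697 normalized counts under AL and 185, 159, 254, 216 and 172 under CR. All CR libraries were below all AL libraries, and *Col5a2* fell by 1.36 ± 0.21 (SE) on the log2 scale (limma adjusted p = 0.0065).

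*Col5a3* encodes a further type V chain of narrower distribution. Its normalized counts were 232, 261, 245 and 144 in AL1, AL3, AL4 and AL5, and 19.5, 34.3, 93.7, 27.7 and 28.8 in CR1 to CR5. CR1, CR2, CR4 and CR5 were close together, CR3 was the highest CR library, and AL5 was the lowest AL library. The means were 221 ± 52.3 (SD, n = 4) and 40.8 ± 30.0 (SD, n = 5), from 159 to 288 reads per AL library and 20 to 97 reads per CR library. *Col5a3* fell by 2.60 ± 0.39 (SE; 95% interval −3.42 to −1.77) on the log2 scale, with a limma adjusted p of 0.0057.

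**Figure D2:**
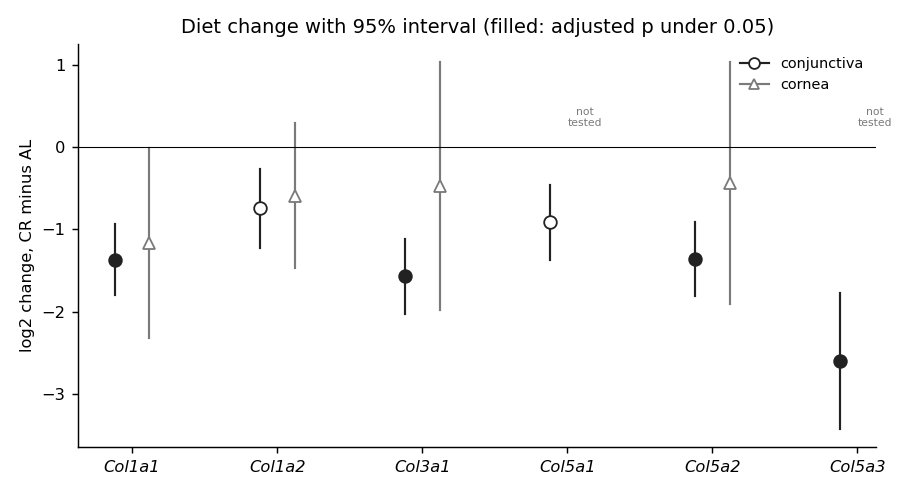
Log2 change (CR minus AL) of each gene with its 95% interval from limma, circles for the conjunctiva and triangles for the cornea. Filled symbols have an adjusted p under 0.05, which holds for 4 conjunctiva changes and no cornea change. Col5a1 and Col5a3 were under the filter on low values in the cornea, and the cornea intervals are wider.

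Summed over the 6 genes, fibrillar collagen took 0.216% to 0.325% of the reads without *Rn45s* in the conjunctiva AL libraries and 0.0943% to 0.195% in the CR libraries. The ranges did not overlap, and the means were 0.283% and 0.135%. Per kilobase of the transcript with the longest coding sequence, the mean AL levels in the conjunctiva were 274 CPM for *Col1a2*, 110 for *Col3a1*, 101 for *Col1a1*, 9.84 for *Col5a1*, 7.24 for *Col5a2* and 3.33 for *Col5a3*. In that order, *Col3a1* and *Col1a1* (SD 22.6 and 18.9) overlapped, and so did *Col5a1* and *Col5a2* (SD 1.96 and 2.15). The order between genes depends on how fragments were drawn along each transcript, which was not settled because the labels and the methods name different library kits, one of them primed at the poly(A) tail.

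*Col1a2* took a larger part of the set under CR. Its share of the reads of the 6 genes was 51.9% ± 1.68 (SD, n = 4) under AL and 63.4% ± 2.52 (SD, n = 5) under CR in the conjunctiva. The shares of *Col3a1* went from 21.7% to 15.0% and of *Col1a1* from 21.1% to 16.7%. In the conjunctiva the ratio of *Col1a2* to *Col1a1* reads was 2.33, 2.57, 2.58 and 2.38 in AL1, AL3, AL4 and AL5, and 3.16, 3.98, 3.67, 4.57 and 3.77 in CR1 to CR5. Every CR library had a higher ratio than every AL library, by 0.63 ± 0.09 (SE) on the log2 scale. The exact two-sided permutation p was 0.0159, the smallest that 4 against 5 libraries can give, and 0.0794 after adjustment over the 5 ratios to *Col1a1*, which did not pass. Since a ratio is taken within a library, it does not depend on the scaling between libraries.

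Of the other ratios to *Col1a1* in the conjunctiva, that of *Col5a3* differed by −1.26 ± 0.45 (SE) and that of *Col5a1* by 0.45 ± 0.18 on the log2 scale, each with an exact permutation p of 0.0476 (adjusted p = 0.0794). Those of *Col3a1* (−0.20 ± 0.12, exact permutation p = 0.159) and *Col5a2* (0.01 ± 0.13, exact permutation p = 1) missed the threshold before adjustment as well. *Col5a2* and *Col1a1* had nearly equal changes, and the log2 ratio of *Col5a3* was the furthest below 0. Against *Col1a2* as the denominator, *Col1a1* (−0.63), *Col3a1* (−0.82), *Col5a2* (−0.62) and *Col5a3* (−1.89) were lower under CR in all libraries, each with an exact permutation p of 0.0159 and an adjusted p of 0.0198 over 5 ratios. *Col5a1* against *Col1a2* was −0.17 (exact permutation p = 0.476). *Col1a2* was the alternative denominator and had the log2 change nearest 0 of the 6 genes (−0.75). The sign of these ratios follows from that choice, so no conclusion is drawn from their passing. Against *Col1a1*, the main denominator, no ratio passed. The ratio between *Col1a1* and *Col1a2* is the same in both sets of 5, and its adjusted p differs only through the ratios it is adjusted with.

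**Figure D3:**
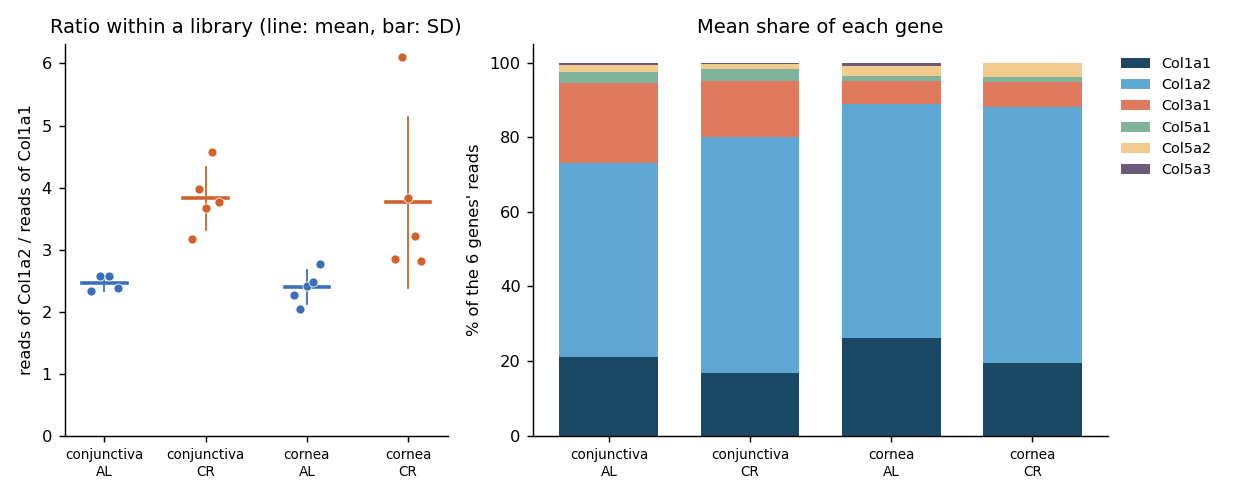
Left, reads of Col1a2 divided by reads of Col1a1 in each library of the 4 groups, with the mean as a line and the SD as a bar, on a linear axis from 0. Right, the mean share of each gene in the reads of the 6 genes, in percent. The CR libraries are above the AL libraries in both tissues, and the point at 6.11 is cornea CR2, which rests on 18 Col1a1 reads.

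Within a diet, the genes other than *Col5a3* went up and down together from library to library of the conjunctiva. After centring on the diet means over the 9 conjunctiva libraries, *Col1a1* and *Col1a2* had a Pearson r of 0.93, *Col1a2* and *Col3a1* 0.93, and *Col1a1* and *Col3a1* 0.88. The 10 pairs that did not include *Col5a3* lay between 0.59 and 0.93 (median 0.74), and the 5 pairs that did between −0.01 and 0.30. AL3 was the lowest and AL5 the highest AL library for *Col1a1*, *Col1a2*, *Col3a1*, *Col5a1* and *Col5a2*, whereas for *Col5a3* AL5 was the lowest and AL3 the highest. These correlations are over 9 points that share library composition and depth, and are given as a description. Over the 10 cornea libraries, the pairs without *Col5a3* lay between −0.02 (*Col1a1* and *Col5a2*) and 0.96, with a median of 0.72.

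The tested genes most like the mean of the 6 in the conjunctiva, by r of values centred within diet over the same 9 libraries, were *Tfpi* (0.985), *Apbb1ip* (0.978), *Rab11fip5* (0.976), *Serpinf1* (0.961), *Dpt* (0.958), *Ric8b* (0.956), *Adcy9* (0.954), *Igfbp4* (0.952), *Col15a1* (0.943) and *Plpp3* (0.940). Of 13923 genes compared, 0.273% had an r over 0.9. Of these 10, 0 passed the test of diet by limma or by voom, and 3 had an unadjusted p under 0.05 in each. *Col15a1*, a collagen next to basement membranes, was at −1.15 ± 0.39 (SE) on the log2 scale (limma adjusted p = 0.323), and *Dpt*, a fibroblast marker whose product binds fibrils, at −0.70 ± 0.19 (SE; limma adjusted p = 0.180). The other 8 lay between −0.58 and −0.02.

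In the cornea the same transcripts were scarce, and no gene of the set passed the test. Of the 6 genes, *Col1a1*, *Col1a2*, *Col3a1* and *Col5a2* passed the filter on low values, and 0 of these 4 were called by limma over 12278 tested genes, with 1 of 4 at an unadjusted p under 0.05, as had 18.1% of all tested genes. Of all tested genes, 0.472% were called lower, 53.1% had a log2 change below 0, as had 4 of 4 members, and 1.89% had all CR libraries below all AL libraries, as had 0 of 4. Limma voom on the recovered reads also called 0 of 4, with 1 at an unadjusted p under 0.05.

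*Col1a1* had 152, 194, 239, 113 and 192 normalized counts in cornea libraries AL1 to AL5, and 88.7, 17.0, 94.0, 90.9 and 196 in CR1, CR2, CR3, CR4 and CR7. CR1 to CR4 were below every AL library, and CR7 was among the highest AL values. The log2 change was −1.17 ± 0.53 (SE; 95% interval −2.33 to −0.01; limma adjusted p = 0.275), and without CR2, the lowest library with 18 reads, it was −0.64. *Col1a2* had 344, 398, 578, 281 and 530 normalized counts under AL and 253, 104, 360, 292 and 551 under CR, and its log2 change was −0.59 ± 0.40 (SE), with a limma adjusted p of 0.465. The groups overlapped, with CR7 again high and CR2 low, and without CR2 the change was −0.24.

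*Col3a1* was read between 10 and 79 times per AL library and between 4 and 89 times per CR library of the cornea. Its log2 change of −0.48 ± 0.71 (SE; limma adjusted p = 0.757) turned to 0.13 without CR2, so no direction can be given. *Col5a2* had 4 to 28 reads under AL and 4 to 23 under CR, and its log2 change was −0.44 ± 0.70 (SE), with a limma adjusted p of 0.775, and ran from −0.88 (without AL4) to −0.16 (without CR1) when 1 library was left out. *Col5a1* had 12, 11, 20, 0 and 7 reads in AL1 to AL5 and 5, 0, 18, 0 and 26 in CR1, CR2, CR3, CR4 and CR7. *Col5a3* had 6, 3, 0, 14 and 2 reads under AL, and in CR the 6 reads of CR7 were the only ones. Both were under the filter and were not tested in the main comparison. A count of 0 allows up to 3 reads, which is 2.27 to 3.3 normalized counts in these libraries, so differences of this size were not detectable at this depth. This limit covers counting error only, whereas the intervals of log2 changes come from the spread between libraries.

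**Figure D4:**
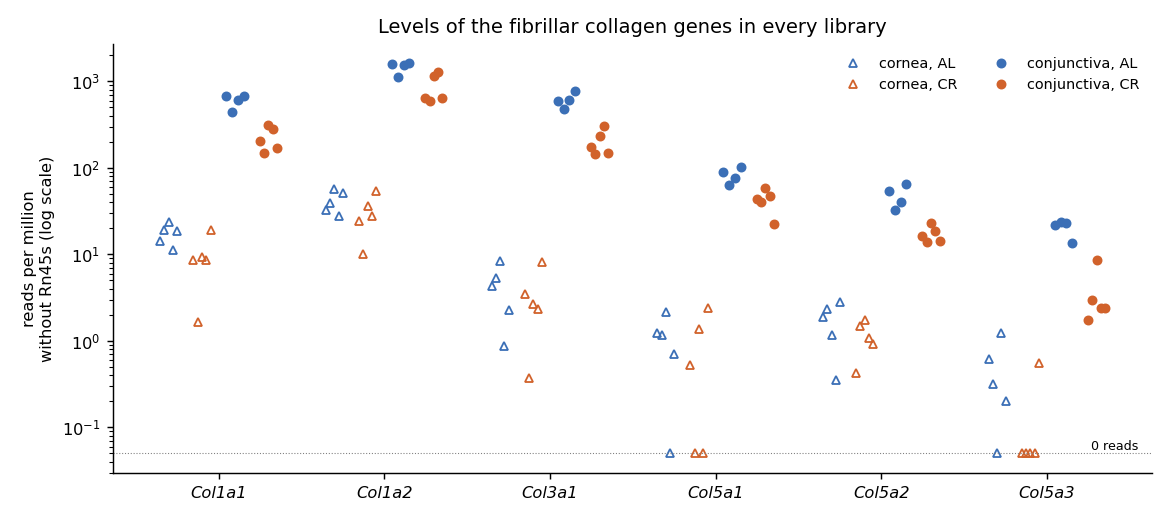
CPM without Rn45s, on a log axis, of the 6 genes in all 19 libraries, with open triangles for the cornea and filled circles for the conjunctiva, AL in blue and CR in orange. Libraries with 0 reads are drawn on the dotted line. For each gene and diet the lowest conjunctiva library lies above the highest cornea library.

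The one ratio that could be followed in the cornea was *Col1a2* to *Col1a1*, since both genes had at least 10 reads in every library. It was 2.27, 2.04, 2.42, 2.48 and 2.77 in AL1 to AL5, and 2.85, 6.11, 3.83, 3.21 and 2.81 in CR1, CR2, CR3, CR4 and CR7. The groups did not overlap, although AL5 and CR7 were close. The difference was 0.59 ± 0.22 (SE) on the log2 scale, with an exact two-sided permutation p of 0.0079, the smallest that 5 against 5 libraries can give. Without CR2 the ratio differed by 0.40 (exact permutation p = 0.0159). The conjunctiva difference was 0.63, so the 2 tissues had like values. The tissues share 8 library titles, and the study took several tissues from each mouse. The libraries of both tissues may therefore come from the same mice, and the like values are no independent repeat. A difference between the tissues in this ratio was not tested.

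Mean levels of the 6 genes under AL were 28.1-fold (*Col5a2*) to 145-fold (*Col3a1*) higher in the conjunctiva than in the cornea, on the scale of CPM. *Col1a1* was 34.6-fold and *Col1a2* 35.4-fold higher, so their ratio was alike in both tissues under AL, while *Col3a1* made up 21.7% of the reads of the set in the conjunctiva and 6.01% in the cornea. Under CR the folds were 23.5 for *Col1a1*, 28.2 for *Col1a2*, 59.1 for *Col3a1*, 49.8 for *Col5a1* and 15.3 for *Col5a2*, and none is given for *Col5a3*, which had 0 reads in 4 of 5 CR libraries of the cornea. The authors scaled the 2 tissues separately, and these folds are a description without a test. By the study's methods the cornea samples were scraped epithelium, while the conjunctiva was excised. The folds and shares therefore compare samples taken in different ways, and say nothing of the corneal stroma.

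The diet change itself did not pass a test of difference between tissues for any gene. The test took the conjunctiva log2 change minus the cornea log2 change over its standard error, and 0.0168% of 11929 genes passed it. It treated the libraries of the tissues as independent, although they may share mice. The difference was −0.21 for *Col1a1* (95% interval −1.41 to 1.003), −0.16 for *Col1a2* (−1.12 to 0.81), −1.09 for *Col3a1* (−2.64 to 0.46) and −0.92 for *Col5a2* (−2.44 to 0.59). With 0 of 4 called, none had an unadjusted p under 0.05, in this test or with limma voom changes, and the unadjusted values ran from 0.157 to 0.737. Of all 11929 genes, 892 had an unadjusted p under 0.05 in this test. The intervals leave room for changes of different size in the 2 tissues.

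Genes that act with these collagens were described from lists fixed by role. Over all tested genes of the conjunctiva, 9.4% had an unadjusted p under 0.05 by limma, the share beside which the counts at that threshold stand. In the procollagen folding list, which holds the hydroxylases and chaperones of the endoplasmic reticulum, 1 of 16 tested genes passed in the conjunctiva, and 11 of 16 had a log2 change below 0 (median −0.26, against −0.02 over all tested genes). The gene that passed was *Serpinh1*, which encodes the collagen chaperone HSP47. It had means of 934 ± 157 normalized counts under AL and 462 ± 104 under CR and fell by 1.03 ± 0.18 (SE) on the log2 scale (limma adjusted p = 0.0150). The study had picked *Serpinh1* and *Loxl2* from these libraries, so they are no independent evidence. In the cornea 0 of 12 folding genes passed, with 1 of 12 at an unadjusted p under 0.05 by limma and by voom, and *Serpinh1* was at 0.14 ± 0.31 (SE) on the log2 scale.

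Downstream of secretion, in the list of propeptide cleavage and crosslinking 0 of 12 genes passed in the conjunctiva by limma or voom, with 4 at an unadjusted p under 0.05 in each, 11 of 12 log2 changes below 0 and a median of −0.66. The smallest p belonged to the lysyl oxidase family members *Loxl2* (−0.76 ± 0.19 SE, limma adjusted p = 0.104) and *Loxl1* (−0.83 ± 0.23 SE, limma adjusted p = 0.180). Among the proteins that bind fibrils, 12 of 12 were below 0 (median −0.59), 6 at an unadjusted p under 0.05, and 0 passed by limma. The proteoglycan *Prelp* came closest (−1.11 ± 0.23 SE, limma adjusted p = 0.0529) and passed with voom. *Fn1*, which encodes fibronectin, was at −0.67 ± 0.17 SE (limma adjusted p = 0.117). *Dcn*, the small proteoglycan decorin and the most abundant transcript of this list in the conjunctiva, was at −0.17 ± 0.21 SE (limma adjusted p = 0.850).

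Other collagens of the conjunctiva were below 0 as well, without a call. Of the fibril-associated and microfibrillar collagens, 10 of 11 were below 0 (median −0.82) and 7 had an unadjusted p under 0.05 by limma and by voom. *Col6a3*, a chain of the microfibrils of type VI collagen, was at −1.08 ± 0.24 SE (limma adjusted p = 0.0767) and *Col16a1* at −0.77 ± 0.19 SE (limma adjusted p = 0.101), both with all CR libraries below all AL libraries. Of the basement membrane and anchoring collagens, 9 of 10 were below 0 (median −0.49) and 5 had an unadjusted p under 0.05 by each tool, with *Col18a1* (−0.63 ± 0.21 SE, limma adjusted p = 0.297) and *Col4a4* (−0.99 ± 0.34 SE, limma adjusted p = 0.316) at the smallest p. The other fibrillar collagens, 3 of which were tested, were between −0.43 and −0.07, with 0 at an unadjusted p under 0.05 by either tool. *Col27a1* and *Col11a2* had the smallest p of these (limma adjusted p = 0.882 and 0.913). In the cornea, 4 of 7 tested basement membrane and anchoring collagens were below 0 (median −0.04) and 3 above, and 0 passed. *Col18a1* was among those above 0 there, at 1.56 ± 0.50 SE (limma adjusted p = 0.121).

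No receptor, enzyme or regulator of these lists passed in the conjunctiva by limma or voom. Among collagen receptors 6 of 9 were below 0 in the conjunctiva (median −0.10), 0 passed and 3 had an unadjusted p under 0.05 by limma and by voom. By limma these were the integrin subunit *Itga11* (−1.36 ± 0.53 SE, limma adjusted p = 0.408), the uptake receptor *Mrc2* (−0.78 ± 0.31 SE, limma adjusted p = 0.422) and, above 0, the inhibitory receptor *Lair1* (1.12 ± 0.47 SE, limma adjusted p = 0.460). Among collagen-degrading enzymes and their inhibitors 10 of 11 were below 0 (median −0.31), 0 passed, and the gelatinase *Mmp9* (−1.12 ± 0.25 SE, limma adjusted p = 0.0767) was the 1 gene at an unadjusted p under 0.05 by either tool. The inhibitor *Timp3* passed in the cornea, where it rose by 0.65 ± 0.14 (SE) on the log2 scale (limma adjusted p = 0.0292), and was at 0.11 ± 0.19 (SE) in the conjunctiva. Among regulators of collagen transcription 10 of 16 were below 0 in the conjunctiva (median −0.14), and 0 passed, with 2 at an unadjusted p under 0.05 by each tool. *Ctgf*, a matricellular gene induced by TGF-beta and by stretch, passed in the cornea by limma, where it rose by 1.38 ± 0.33 (SE) on the log2 scale (adjusted p = 0.0445), and not by voom. *Ctgf* was at 0.39 ± 0.30 (SE) in the conjunctiva. Apart from *Timp3* and *Ctgf*, no gene of these lists passed in the cornea by limma.

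**Figure D5:**
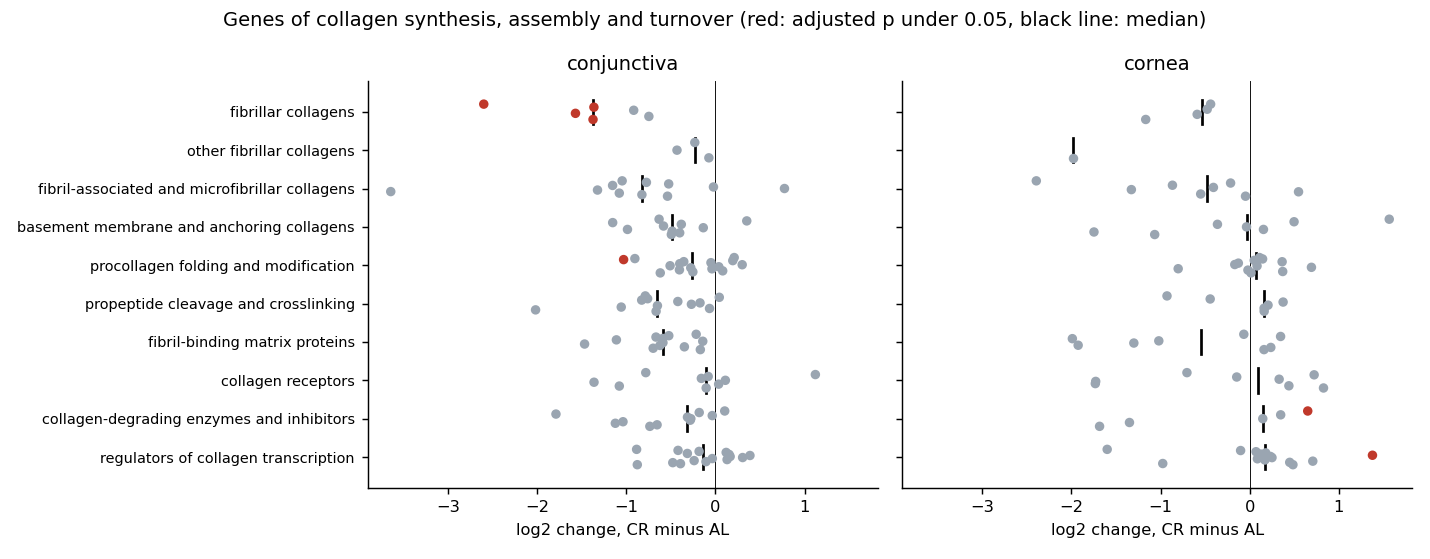
Log2 change (CR minus AL) of every tested gene of the fibrillar collagens and of 9 lists by role, in the conjunctiva (left) and the cornea (right), with black lines at the list medians and red points at an adjusted p under 0.05. In the conjunctiva 9 list medians other than that of the fibrillar collagens (−1.37) lie between −0.82 and −0.10.

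Markers of fibroblasts, the cells that make these collagens, had log2 changes below 0 in the conjunctiva without a call. Of 10 fibroblast markers, 10 of 10 had a log2 change below 0 (median −0.66), 8 had an unadjusted p under 0.05 by limma and by voom, against 9.4% of all tested genes by limma, and 0 passed. Their summed level was 2625 to 4002 CPM under AL and 1571 to 3402 under CR, ranges that overlapped, and none of the 10 had all CR libraries below all AL libraries. The defining marker *Pdgfra* was at −0.57 ± 0.17 (SE; limma adjusted p = 0.208). Their part in the lower collagen transcripts was not tested.

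Macrophage markers were below 0 in 7 of 7 cases in the conjunctiva (median −0.49), with 4 at an unadjusted p under 0.05 and 0 passed by limma and by voom. Their summed level ran from 271 to 367 CPM under AL and from 168 to 274 under CR. Skeletal muscle markers differed widely between conjunctiva libraries, from 1020 to 4828 CPM under AL and from 1052 to 9847 under CR. Their log2 changes were above 0 for 6 of 6 (median 0.49), with 0 passed and 0 at an unadjusted p under 0.05 by limma or voom. The epithelial markers ranged from 9062 to 13199 CPM under AL and from 7439 to 14490 under CR. The 3 tested fat cell markers had log2 changes above 0 (median 2.25), with 0 passed, 2 at an unadjusted p under 0.05 by limma and 0 by voom, and their list summed to 0.713 to 18.3 CPM under AL and 2.61 to 18.9 under CR. Of 5 goblet cell markers 3 were above 0 and 0 passed, with 2 at an unadjusted p under 0.05 by each tool. By limma they were *Muc5b* (0.93 ± 0.28 SE, limma adjusted p = 0.244), with all CR libraries above all AL libraries, and *Tff1* (1.21 ± 0.41 SE, limma adjusted p = 0.384). Lacrimal and meibomian gland markers summed to 401 CPM in conjunctiva CR5, against 30.3 to 47.3 in the other conjunctiva libraries, and without CR5 the same 4 collagen genes were called, *Col1a1* at −1.31, *Col3a1* at −1.49, *Col5a2* at −1.32 and *Col5a3* at −2.53. In the cornea, fibroblast markers summed to 44.7 to 137 CPM under AL and to 40.5 to 155 under CR, and 7 of 8 tested had a log2 change above 0, with 0 passed and 0 at an unadjusted p under 0.05 by either tool. The macrophage marker *C1qa* fell by 1.58 ± 0.39 (SE) on the log2 scale in the cornea (limma adjusted p = 0.0467), a call that voom did not make. Lacrimal and meibomian gland markers summed to 821 CPM in cornea AL1, against a median of 25.1 CPM under AL and at most 12.3 CPM under CR. Of these, the secretoglobin *Scgb2b24* passed by limma and not by voom (adjusted p = 0.0387), with 0.615 to 790 CPM under AL and 0 in 4 of 5 CR libraries. The part of these cells in the collagen values was not tested.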

How the data were processed

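The authors trimmed single reads with cutadapt, aligned them with STAR, counted them per gene with HTSeq and scaled each tissue in its own table with DESeq2 size factors. The study's methods give mm10, and the submitters' processing notes name DESeq2 and GRCm39. The deposited values are log2 of the normalized count plus 1, and were turned back into normalized counts and whole reads (all within 0.001 of a whole read). Of 24557 rows, 5 repeated a symbol and were left out. Depth was 10354125 to 14681223 counted reads per library, and 0 columns were left unmapped.

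Groups followed the labels (a legend in the study swaps the 2 conjunctiva group sizes). Diets were compared within a tissue with limma 3.58.1 (statmod 1.5.0, R 4.3.3), with an intensity trend and robust moderation. Genes entered where their mean reached 10 normalized counts. The pseudocount was 1, so log2 changes of low genes are understated. Count models were not used because the deposited unit is log2, and limma voom on recovered reads was an alternative. The difference between tissues used Satterthwaite degrees of freedom. Ratios were tested with exact two-sided permutation tests (scipy 1.17.1), where both genes had at least 10 reads in every library. Other alternatives were no filter, a filter at 50, pseudocounts of 0.5 and 10, quantile and TMM scaling, array weights, the replicate block, a covariate for the share of genes without reads, a difference per shared title, *Col1a2* as denominator and leaving out each library. The fits were tested on simulated data. All 6 collagen genes are named, and of each pathway list the genes past adjusted p under 0.05, or else the 1 or 2 with the smallest p in the conjunctiva, and marker genes where a level or test of theirs is given. The genes and lists were chosen with earlier results of these data known. The labels do not say whether replicate numbers pair the libraries, and the main fits did not pair them. Deviations of equal numbers correlated at −0.06 to 0.05 in the conjunctiva and −0.30 to 0.29 in the cornea. The labels name a stranded mRNA kit and the methods an oligo(dT) kit, so the use of strand is not settled. In the annotation other genes overlap *Col1a2*, *Col3a1* and *Col5a2* on the same strand, and *Col5a1* and *Col5a3* on the other strand only. Reads of these overlaps could be counted with the collagen genes or dropped, which is not given in the sources used here.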

Additional observations from a re-analysis of the deposited data

Results flagged for a closer look

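Among 24 combinations of gene, tissue and diet, 2 held a library far from the rest of its group by Dixon's criterion at the 95% level, which chance gives in about 1 of 20. *Col1a2* in the conjunctiva AL group had its lowest library, AL3, apart from the other three, with a gap of 0.861 of the group's range of log2 values. The same library was the lowest AL library for *Col1a1*, *Col3a1*, *Col5a1* and *Col5a2*. *Col5a3* in the cornea CR group had 6 reads in CR7 and 0 in the other 4 libraries, a gap of 1.0 of the range. Any value above 0 gives that gap beside libraries that are all at 0, so the chance rate given above does not apply to it.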

How the results depend on the processing

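In the conjunctiva the number of fibrillar collagen genes called lower was 4 in all processing alternatives except array weights (5, with *Col5a1* at an adjusted limma p of 0.0137) and the replicate block (1). Under the replicate block *Col5a3* passed, and *Col1a1* (−1.24, adjusted p = 0.0929), *Col3a1* (−1.47, adjusted p = 0.0665) and *Col5a2* (−1.29, adjusted p = 0.133) did not. Whether the numbers pair the libraries is not given in the labels, and the low correlation of equal numbers does not settle it. Conjunctiva CR2 has no AL library of its number, and the block gave the same log2 changes as the fit without CR2. Calls over all genes also went from 50 to 10. Without 1 library the count ran from 4 to 5. In the cornea and for the difference between tissues the count was 0 in every alternative that was run. The cornea change of *Col3a1* turned to 0.29 with a covariate for the share of genes without reads, and leaving out 1 library gave −0.94 to 0.13 (the latter without CR2). The difference between tissues turned for *Col1a1* under the replicate block (0.22), per shared title (0.15) and without cornea CR7 (0.13), and for *Col1a2* likewise (0.12, 0.17 and 0.10). Leaving out 1 library gave −0.73 to 0.13 and −0.50 to 0.10. Some alternatives brought the unadjusted p of the difference test under 0.05, without passing after adjustment. For *Col3a1* these were a pseudocount of 10 (0.028), quantile scaling (0.037), the covariate (0.035) and leaving out cornea CR2 (0.012). For *Col5a2* it was a pseudocount of 10 (0.026), and for *Col1a1* leaving out cornea CR2 (0.039). With *Col1a2* as the denominator, the log2 ratios were −0.82 for *Col3a1*, −0.17 for *Col5a1*, −0.62 for *Col5a2* and −1.89 for *Col5a3*. Without 1 library, the ratio of *Col5a2* to *Col1a1* lay between −0.072 and 0.10. The causes were not tested. Few cornea reads limited what could be seen there, and levels across tissues moved by less than their spread on the other 2 scales.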

Other observations

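The reads of the 6 fibrillar collagen genes were also divided by the reads of the 10 fibroblast markers of the same library, a ratio added after the other values had been seen and given without a test. In the conjunctiva it was 0.753, 0.824, 0.781 and 0.866 in AL1, AL3, AL4 and AL5, and 0.475, 0.399, 0.521, 0.578 and 0.636 in CR1 to CR5. In the cornea it was 1.23, 0.911, 0.671, 0.688 and 0.898 in AL1 to AL5, and 0.433, 0.337, 0.575, 0.504 and 0.551 in CR1, CR2, CR3, CR4 and CR7. In both tissues each CR library was below each AL library. *Dcn* makes up the largest part of the marker reads, so the ratio follows that gene closely. In the conjunctiva *Dcn* had the log2 change nearest 0 of the 10 markers (−0.17, against a median of −0.66). The ratio there therefore does not show how the collagens stood against the other markers.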
